A study of Sus scrofa with 24 samples.

Results

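Spleen circRNAs of Meishan pigs were compared between 35 days (35d) and 1 day (1d) after birth, with 3 pigs at each age and 1 library per pig. The comparison held 6 of the 24 libraries of a series over 8 ages, and all 3000 circRNAs of its count table, from 1d replicates 1 to 3 and 35d replicates 1 to 3. Both groups were spleen of the same breed, a Chinese indigenous pig, and the labels name no treatment, allele or other trait of the animals. The pigs at 35d were other animals than those at 1d, and whole spleen was sequenced, so fewer cells of a type and less RNA per cell cannot be told apart. The comparison asks which circRNAs of the newborn spleen gain or lose reads by the sixth week of life, and from which kinds of host gene they come.

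A circRNA is a closed loop of RNA that forms by back-splicing, in which the splicing machinery links a downstream splice donor to an upstream acceptor. It carries no cap and no poly(A) tail, resists exonucleases and can outlast the mRNA of its host gene, the gene whose exons it holds. The spleen filters the blood, removes old red cells and houses B cells, T cells and macrophages. In newborn mammals it can still make blood cells, and its B cell follicles fill after birth.

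The back-splice junction is the only stretch of sequence that tells a circRNA from the mRNA of its host, and the counts are of reads across it. The junctions below carry the main results: receptors and adaptors of lymphocytes and phagocytes, interferon-induced genes, and 3 circRNAs that fell. Each is read 5′ to 3′ along the circle from the Sscrofa11.1 assembly, with the last 15 bases before the junction in lower case and the 15 bases after it in capitals.
CR1 circRNA_37493, intron, chr9:68044952-68045673, + strand: ttcgtctttgtaaagATTGTCAAGCACCTC
BANK1 circRNA_36034, exons 6 to 7, chr8:118986952-118997791, - strand: tttgaggagttttccAATGACATTGATGGA
CD22 circRNA_30180, exons 5 to 6, chr6:44826906-44827555, + strand: agctggtcgtgcagtACACGCCGAAGTTGG
FAM129C circRNA_21131, exons 3 to 4, chr2:60179898-60180750, - strand: gcccagactcctcggAAGCTGCCCCGAGTC
CD96 circRNA_11685, exons 4 to 5, chr13:148164225-148168420, - strand: gatgtccttggaaagGAGGGTAATGGAACG
LOC100516957 circRNA_21182, exons 2 to 6, chr2:63857472-63862039, + strand: cagagagttgtgacgCCTCAGGACTCTTGC
EIF2AK2 circRNA_24923, exons 5 to 8, chr3:103051982-103055415, + strand: gtcctatctccagtgGCAAATAGTTCTTCA
HERC6 circRNA_36156, exons 18 to 19, chr8:130602052-130603903, - strand: ggcctgtgtttttctCCTACACGTGGGAAG
HERC6 circRNA_36152, exons 20 to 22, chr8:130598412-130600711, - strand: agaaaaaattcctctATATACTGGGACAAA
SLC45A4 circRNA_25535, exon 2, chr4:2484106-2484734, + strand: tcctcttgcagatcgATCGCCAGTCCCTCG
TMX1 circRNA_02977, exons 3 to 7, chr1:180939110-180943732, + strand: agccatatcctaccaGACTAAGTGGACGAT
EZH2 circRNA_38090, exons 2 to 8, chr9:109411982-109431724, + strand: actgcttcctacatcAATAATCATGGGCCA

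The libraries of 1d held between 16273 and 23752 back-splice reads, those of 35d between 35599 and 56086. Between 2232 and 2549 of the 3000 circRNAs had reads in a library of 1d, against 2801 to 2935 at 35d. Relative to the clean reads, the circRNAs took 183 ± 31.6 RPM at 1d, against 461 ± 99.0 RPM at 35d (SD, n = 3). Levels are given below as normalized counts, the counts divided by the relative size of the library after TMM scaling, which takes most circRNAs as unchanged between libraries, so that they are levels among circRNAs and leave this rise of the total out. No replicate pair agreed within sampling noise. The correlation of log2 levels across circRNAs was 0.577 to 0.596 between libraries of 1d and 0.732 to 0.789 between those of 35d. Technical values moved with age as well: 2 of the 3 libraries of 35d (replicates 2 and 3) and none of 1d had a share of valid bases under 0.96, and the GC content of the reads did not overlap between the ages. Their part in the results cannot be told apart from age in these libraries, and fits that hold them are given with the other settings. Results said below to hold without single libraries could still be lost in those fits.

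A circRNA was called DE at an adjusted p under 0.05 with a fold change of at least 2. At 35d 57 circRNAs were higher (1.9% of those tested) and 8 were lower (0.267%). The 3 libraries of 35d lay entirely above those of 1d for 422 circRNAs (14.1%) and entirely below for 198 (6.6%), and each of the 65 DE circRNAs was among them. Of the 57 that rose, 16 were listed at 0 in all 3 libraries of 1d. A further 52 circRNAs listed at 0 in all 3 were not called. With every library thinned to the lowest library total, only CR1 circRNA_37493 and circRNA_10904 among the 16 kept their call. Thinning also lowers the counts of 35d, so the calls lost do not show whether those circRNAs were absent at 1d. The table holds 6276 zeros, no count of 1 and 4704 counts of 2. On the assumption, which no source states, that single reads were entered as 0, a 0 in all 3 libraries allows up to 7 reads in all, or 3.95 normalized counts, at 95% confidence for counting error only. For these 16 the fold is given as a lower bound against that limit. The bound takes the mean at 35d as exact and leaves out any error at that age. Some of these bounds are under 2. Those circRNAs met the fold threshold only by the fitted fold change, which for a group at 0 depends on the prior count, a small count added in the fit. The median log2 fold change of the 3000 circRNAs was 0.19, and single values are to be read against it.

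**Figure D1:**
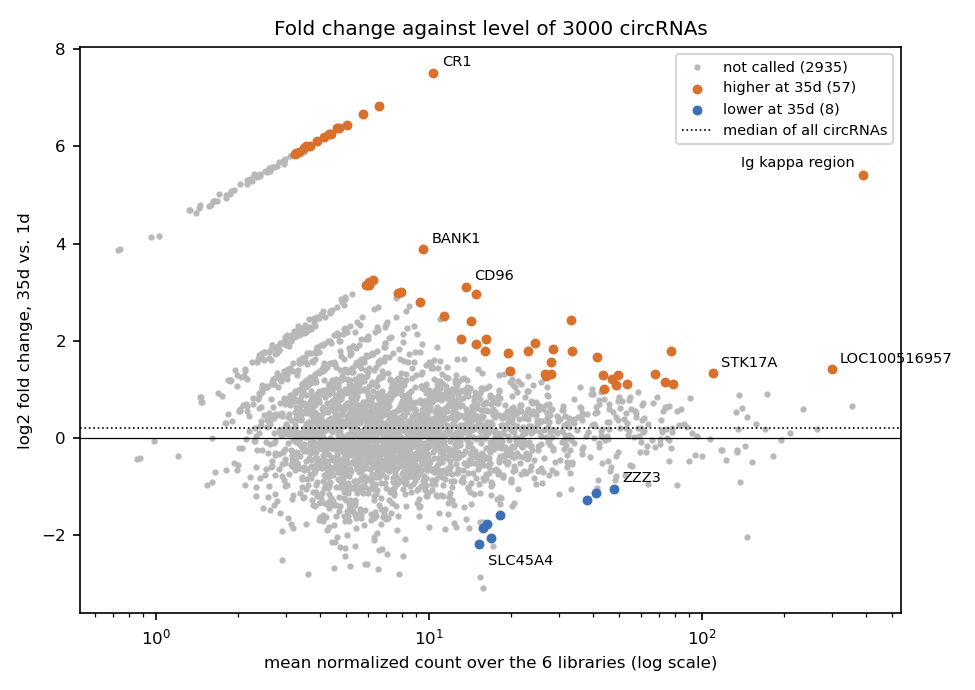
Log2 fold change between 35d and 1d (vertical axis) against the mean normalized count over the 6 libraries (horizontal, log scale) for 3000 circRNAs, with the 57 higher at 35d in orange and the 8 lower in blue. The points along the upper edge are circRNAs listed at 0 in all 3 libraries of 1d, whose plotted fold depends on the prior count, and the dotted line is the median of all circRNAs at 0.19.

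Host genes of B cells gave 3 DE circRNAs that were higher at 35d, and a further DE circRNA lay in an immunoglobulin region. BANK1, a scaffold protein that acts behind the B cell receptor, gave circRNA_36034, with 0, 0 and 3.01 normalized counts in the libraries of 1d and 17.3, 19.2 and 17.8 in those of 35d. The 3 older pigs lay close together and far above the younger ones. Its pooled counts were 2 at 1d and 67 at 35d, a ratio of 16.1 after scaling (exact 95% interval 4.30 to 136, for counting error only). The adjusted p of edgeR's test was 0.00406. Here and for the other pooled ratios below, each listed 0 is taken as no reads. If single reads were entered as 0, these ratios and the limits of their intervals could be too high. FAM129C, also named NIBAN3, a gene expressed in B cells, gave circRNA_21131, with 0, 3.29 and 6.03 at 1d against 18.4, 35.5 and 26.0 at 35d. The groups did not overlap, and the log2 fold change was 2.97 (SE, its standard error, 0.67, adjusted p = 0.00746). CD22, an inhibitory receptor of B cells that binds sialic acid, gave circRNA_30180, with 13.9, 14.8 and 13.6 at 1d against 55.2, 41.9 and 29.7 at 35d. At 1d its 3 libraries were nearly equal, and the spread at 35d was wide (42.3 ± 12.8, SD, n = 3), for a log2 fold change of 1.56 (SE 0.41, adjusted p = 0.0242). Without single libraries the call of BANK1 held (adjusted p up to 0.0394), that of FAM129C was lost without 1d replicate 1 (0.0609) or 2, and that of CD22 without each library but 35d replicate 3 (0.111 without 1d replicate 1).

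circRNA_24032 lay in the region of immunoglobulin kappa variable genes (chr3:57235342-57272274), which encode part of the antibody light chain. It had 13.9, 11.5 and 27.1 normalized counts at 1d against 826, 677 and 791 at 35d, which made it the most abundant of the 3000 circRNAs at 35d. The groups were more than an order of magnitude apart, with a log2 fold change of 5.41 (SE 0.95, adjusted p = 0.0062), and the call held without each library in turn (up to 0.0421). Its ends were not both annotated exon ends of the same gene. The 30 bases inside its downstream end occur at 5 further places within 500 kb on the same strand. Reads of these near-identical gene segments could therefore be assigned to the wrong member, and the junction is reported as uncertain.

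Single receptors of T cells, natural killer cells and phagocytes gave higher circRNAs as well. In the T and NK cell list and in the macrophage and granulocyte list 1 of 4 measured host genes each was called higher. CD96, a receptor of T and natural killer cells that binds nectin-family ligands, gave circRNA_11685, with 0, 3.29 and 4.52 at 1d against 17.3, 39.0 and 17.8 at 35d. Replicate 2 of 35d stood above its fellows, and all 3 were above 1d (log2 fold change 3.11, SE 0.63, adjusted p = 0.00406, and up to 0.0342 without single libraries). LOC100516957, annotated as similar to the adhesion G protein-coupled receptor E2, a family of myeloid surface receptors, gave circRNA_21182. Its levels were 151, 123 and 214 at 1d against 471, 454 and 385 at 35d, a log2 fold change of 1.42 (SE 0.21, adjusted p = 7.1e-05). It was the second most abundant circRNA at 35d, and the 30 bases inside its upstream end occur at 1 further place within 500 kb. ITGA4, the alpha 4 integrin subunit through which leukocytes bind VCAM1, gave circRNA_16197, with 0, 0 and 3.01 at 1d against 9.75, 10.6 and 11.9 at 35d (pooled ratio 9.64, exact 95% interval 2.50 to 82.3, adjusted p = 0.042). PLXNC1, the receptor of semaphorin 7A, gave circRNA_29337, with 3.98, 0 and 3.01 at 1d against 16.2, 16.3 and 16.3 at 35d (log2 fold change 2.79, SE 0.66, adjusted p = 0.00908). The calls of ITGA4 (0.163) and PLXNC1 (0.0818) were lost without 1d replicate 2, and that of ITGA4 also without 1d replicate 1 or any library of 35d.

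CR1, the receptor that clears complexes coated with complement, gave the rise with the largest bound. circRNA_37493, in an intron of the gene, had no listed reads in any pig of 1d, against 15.2, 20.6 and 26.7 normalized counts at 35d. It was thus at least 5.28-fold higher (adjusted p = 8.19e-05, and up to 0.00571 without single libraries). CD46, a regulator that inactivates complement on cell surfaces and the other complement gene measured, had a log2 fold change of -0.01 for the sum of its 2 circRNAs (SE 0.58, adjusted p = 0.997).

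Interferon-induced genes, a group formed after the calls were known, gave 4 of the 65 DE circRNAs. All 4 were higher at 35d, as were 57 of the 65, and 3 of the 4 were listed at 0 in each library of 1d. The share of such genes among all 3000 circRNAs was not counted. EIF2AK2, the kinase PKR that senses double-stranded RNA and halts translation, gave circRNA_24923, with 8.66, 11.4 and 5.94 at 35d (at least 2.19-fold higher, adjusted p = 0.0129). EPSTI1, which interferon induces, gave circRNA_06645, with 7.58, 11.4 and 5.94 (at least 2.1-fold higher, adjusted p = 0.012). HERC6, a ubiquitin ligase of the HERC family induced by interferon, gave 2 DE circRNAs from neighbouring exons. circRNA_36156 had 10.8, 16.3 and 7.43 at 35d (at least 2.92-fold higher, adjusted p = 0.00908). circRNA_36152 rose from 3.98, 4.94 and 6.03 at 1d to 23.8, 21.3 and 18.6 at 35d, with a log2 fold change of 2.04 (SE 0.55, adjusted p = 0.0278). The third HERC6 circRNA, circRNA_36164, had a log2 fold change of 2.74 and did not pass (adjusted p = 0.158). Each of the 4 calls was lost without 1d replicate 1 or 1d replicate 2, those of EIF2AK2 and EPSTI1 also without 35d replicate 2, and that of circRNA_36152 also without 1d replicate 3 or 35d replicates 1 and 2. The adjusted p then reached 0.0644 for EIF2AK2 and EPSTI1, 0.0605 for circRNA_36156 and 0.133 for circRNA_36152.

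A further 4 rises came from enzymes that attach or remove ubiquitin and SUMO, also grouped after the calls were known. In the list of ubiquitin ligases and deubiquitinases 3 of 77 host genes were higher (3.9%, beside 1.91% of all host genes). ARIH1, a ubiquitin ligase that works with cullin complexes, gave circRNA_33492, listed at 0 at 1d and with 13, 12.1 and 5.20 at 35d (at least 2.55-fold higher, adjusted p = 0.016). MYCBP2, a very large ubiquitin ligase, gave circRNA_06898, with 5.97, 0 and 4.52 at 1d against 8.66, 30.5 and 18.6 at 35d, which spread over more than 3-fold (log2 fold change 2.51, SE 0.61, adjusted p = 0.012). USP3, a protease that removes ubiquitin from histones, gave circRNA_01497, with 27.9, 31.3 and 27.1 at 1d against 57.4, 78.0 and 75.0 at 35d. Both groups of USP3 were tight, and its call (log2 fold change 1.29, SE 0.26, adjusted p = 0.00253) held without each library. PIAS1, a SUMO ligase, rose by 1.08 on the log2 scale (adjusted p = 0.016). The other calls were lost without single libraries: ARIH1 without any of 1d (up to 0.0818) or 35d replicate 2, MYCBP2 without 1d replicate 2 or 35d replicate 2 (0.12), and PIAS1 without 1d replicates 1 (0.18) or 3 or 35d replicate 2.

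Among the 65 DE circRNAs, of which 57 rose, 8 came from genes of membrane traffic and autophagy and were higher at 35d. The list of endocytosis genes as a whole had a median log2 fold change of 0.06, which turned to -0.13 after thinning to equal depth. Of its 69 host genes 3 were higher (4.35%, beside 1.91% of all host genes). Sorting nexins, which bend and sort endosomal membrane, gave SNX6 circRNA_33620 (log2 fold change 1.15, adjusted p = 0.00529), SNX13 circRNA_37724 (1.29, 0.00669) and SNX14 circRNA_00762 (1.79, 0.0378). RUBCNL, which helps autophagosomes mature, gave circRNA_06528, with 15.9, 11.5 and 18.1 at 1d against 43.3, 61.0 and 52.0 at 35d (log2 fold change 1.78, SE 0.37, adjusted p = 0.00529). DENND1B, an exchange factor of the endosomal GTPase Rab35, gave circRNA_04854, with 5.97, 9.88 and 3.01 at 1d against 32.5, 22.0 and 23.8 at 35d (log2 fold change 2.03, SE 0.47, adjusted p = 0.00832). FCHSD2, a membrane-bending protein of clathrin endocytosis, gave circRNA_36504, with uneven levels at 35d (158, 69.5 and 134, against 33.8, 23.05 and 46.7 at 1d; log2 fold change 1.78, adjusted p = 0.0455). WDR7, a partner of the vacuolar proton pump, gave circRNA_01405, listed at 0 at 1d and at 3.25, 10.6 and 7.43 at 35d (at least 1.80-fold higher, adjusted p = 0.0269). OSBPL1A, a sterol-binding protein of late endosomes, gave circRNA_31595, with 2 reads at 1d and 41 at 35d (ratio 9.88, exact 95% interval 2.57 to 84.3, adjusted p = 0.0365). Each of the 8 calls was lost without at least 1 library. Those of RUBCNL (1d replicate 2, 0.0538), DENND1B (1d replicate 3, 0.0607), SNX13 (1d replicate 1, 0.0815) and SNX6 (35d replicate 3, where the fold fell under the threshold at 0.0391) depended on 1 library each. SNX14 and FCHSD2 were lost without 1d replicates 1 and 2 or 35d replicates 1 and 3 (up to 0.236 and 0.153), OSBPL1A without 1d replicates 2 and 3 or 35d replicates 2 and 3 (up to 0.163), and WDR7 without each library but 35d replicate 1 (up to 0.102).

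Regulators of actin and cell shape gave 8 of the 57 rises and none of the 8 falls. Of the 26 host genes in the actin list 14 had a log2 fold change above 0, beside 970 of all 1674 host genes. In that list 1 host gene was called higher (3.85%, beside 1.91% of all host genes). FAM49B, also named CYRIB, which binds Rac1 and limits actin branching, gave circRNA_25636, listed at 0 at 1d and at 5.41, 14.2 and 8.17 at 35d (at least 2.35-fold higher, adjusted p = 0.00871). SCIN, which severs actin filaments, gave circRNA_37700, listed at 0 at 1d and at 8.66, 5.68 and 11.9 at 35d (at least 2.21-fold higher, adjusted p = 0.0129). The scaffold gene FRMD4B gave 2 circRNAs, of exons 3 to 6 (circRNA_09986, 0 at 1d, at least 1.70-fold higher, adjusted p = 0.041) and of exons 9 to 12 (circRNA_09978, ratio 8.36, exact 95% interval 2.71 to 41.8, adjusted p = 0.0378). EVL, an Ena/VASP protein that extends actin filaments, gave circRNA_34473, with 3.98, 11.5 and 3.01 at 1d against 16.2, 29.1 and 25.3 at 35d (log2 fold change 1.92, SE 0.49, adjusted p = 0.016). MKL1, also named MRTFA, a coactivator that actin monomers hold in the cytoplasm, gave circRNA_27744, with 0, 9.88 and 3.01 at 1d against 19.5, 24.1 and 29.0 at 35d (2.41, 0.61, 0.0171). TESK2, a kinase of cofilin, gave circRNA_32295 (1.32, adjusted p = 0.00253), and DOCK4, an exchange factor of Rac, gave circRNA_19906 (1.37, 0.0432). TESK2 kept its call without each library (up to 0.0302). FAM49B was lost without 1d replicate 2 (0.0565) or 35d replicate 2, SCIN without 1d replicates 1 and 2 (up to 0.0644) or 35d replicate 3, MKL1 without 1d replicates 1 (0.129) and 3 or 35d replicate 3, and EVL without 1d replicates 1 (0.111) and 3 or 35d replicates 2 and 3. DOCK4 was lost without each library but 35d replicate 3 (up to 0.237), circRNA_09978 of FRMD4B without 1d replicates 1 and 2 or 35d replicates 1 and 2 (up to 0.177), and circRNA_09986 without any library (up to 0.126).

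**Figure D2:**
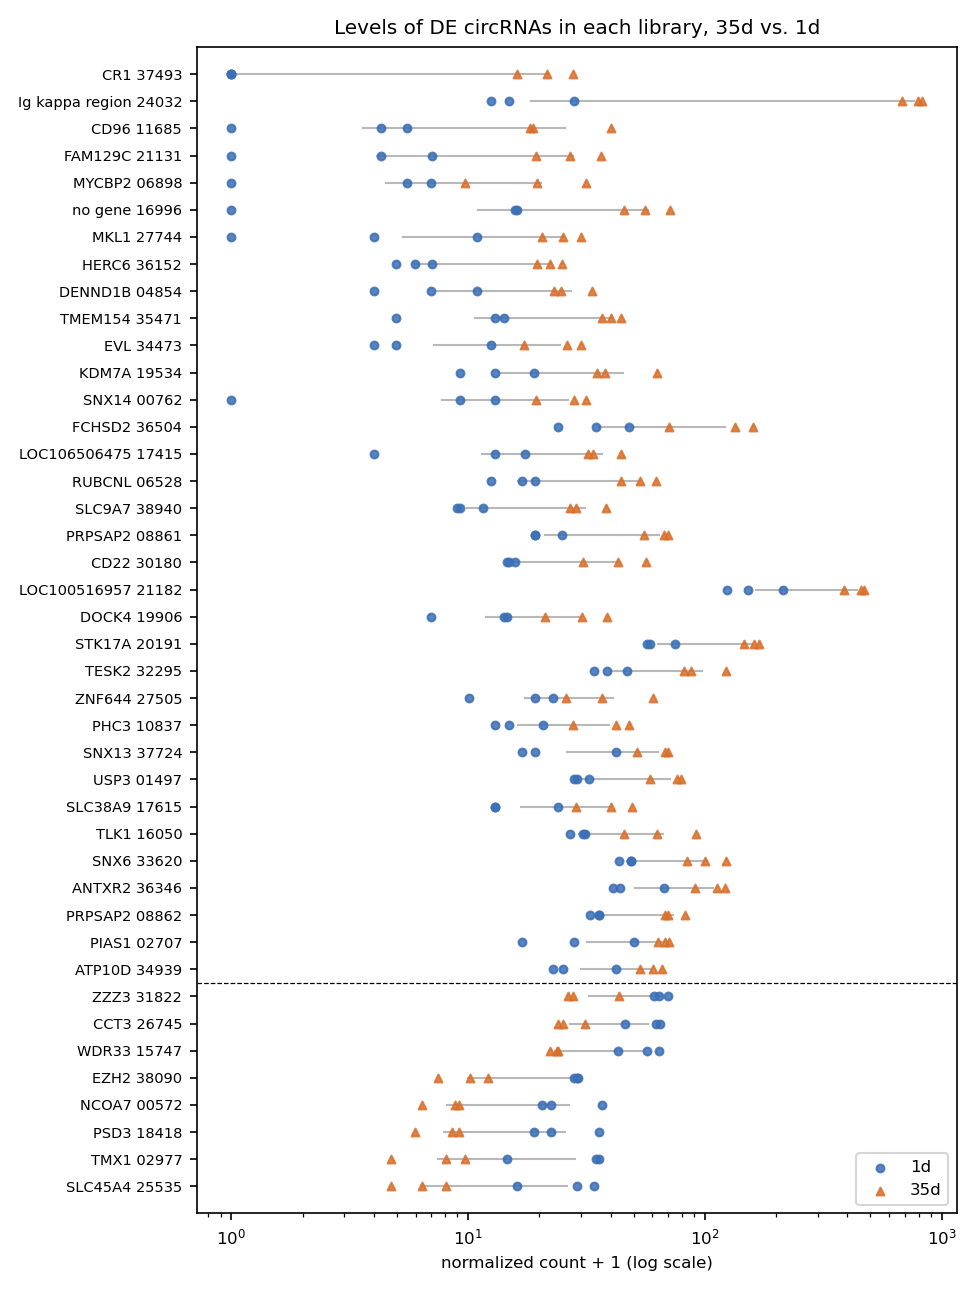
Normalized count + 1 (log scale) in each library of 1d (blue circles) and 35d (orange triangles) for the DE circRNAs with a mean of at least 10, 34 higher at 35d above the dashed line and 8 lower below it, with grey lines joining the group means. No row overlaps between the ages, and the circRNA of the Ig kappa region moves farthest among those detected at 1d; per clean read, the ZZZ3 circRNA is not lower at 35d.

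Signalling enzymes were led by STK17A, a kinase related to the death-associated protein kinases. Its circRNA_20191 had 57.7, 56.0 and 73.8 at 1d against 145, 169 and 160 at 35d, with a log2 fold change of 1.33 (SE 0.22, adjusted p = 0.000165, and up to 0.00709 without single libraries). PPP3CC, a catalytic subunit of calcineurin, the phosphatase of T cell activation, gave circRNA_12421, and PPIP5K2, which makes inositol pyrophosphates, gave circRNA_22023. Both were listed at 0 at 1d, with 6.5, 9.22 and 3.72 for PPP3CC at 35d (at least 1.64-fold higher, adjusted p = 0.0418) and 4.33, 8.51 and 6.69 for PPIP5K2 (at least 1.65-fold higher, adjusted p = 0.0332). PRPSAP2, a partner of the enzyme that makes the sugar phosphate for nucleotide synthesis, gave 2 DE circRNAs that start at the same exon 2. The longer, circRNA_08861 of exons 2 to 5, rose from 23.9, 18.1 and 18.1 to 54.1, 68.8 and 66.1 (log2 fold change 1.67, SE 0.33, adjusted p = 0.00253). The shorter, circRNA_08862 of exons 2 to 4, rose from 31.9, 34.6 and 34.7 to 67.1, 68.8 and 81.7 (1.10, 0.26, 0.00908). Without single libraries the longer circle kept its call (up to 0.0202), that of the shorter was lost without 1d replicate 1 (0.0572) or 35d replicate 3, PPP3CC without each but 35d replicate 3 (up to 0.14) and PPIP5K2 without each but 35d replicate 1 (up to 0.106).

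Genes of membrane transport and lipid synthesis gave 4 rises and 1 fall, that of SLC45A4, described with the falls. B4GALT6, which makes lactosylceramide, a step of glycosphingolipid synthesis, gave circRNA_31644, listed at 0 at 1d and at 8.66, 11.4 and 8.17 at 35d (at least 2.38-fold higher, adjusted p = 0.0062, and up to 0.0394 without single libraries). SLC38A9, the arginine sensor of the lysosome, gave circRNA_17615 (log2 fold change 1.27, adjusted p = 0.016), and ATP10D, a lipid flippase, gave circRNA_34939 (1.01, 0.0303). circRNA_38940 lay within SLC9A7, a sodium-proton exchanger of the Golgi, without both ends at annotated exon ends of the gene (1.74, 0.041). SLC38A9 was lost without 1d replicates 1 and 3 or 35d replicate 2 (up to 0.127), ATP10D without 1d replicates 1 and 3 or 35d replicates 2 and 3 (up to 0.165), and SLC9A7 without any library (up to 0.159).

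Chromatin, transcription and RNA processing held 7 rises and 4 falls. KDM7A, a demethylase of repressive histone marks, gave circRNA_19534, with 17.9, 8.23 and 12.1 at 1d against 36.8, 34.1 and 61.7 at 35d (log2 fold change 1.82, SE 0.40, adjusted p = 0.00669). TLK1, a kinase of chromatin assembly, gave circRNA_16050 (1.20, 0.00669), whose ends were not both annotated exon ends of the gene. PHC3 of Polycomb repressive complex 1 gave circRNA_10837 (1.32, 0.0318), and the zinc finger gene ZNF644 gave circRNA_27505 (1.32, 0.0345). A further 3 were listed at 0 at 1d: ZBTB11 circRNA_11760, of a zinc finger factor (7.58, 6.38 and 8.17 at 35d, adjusted p = 0.0303), RNGTT circRNA_00822, of the mRNA capping enzyme (7.58, 9.93 and 5.94, adjusted p = 0.0378), and SNRNP40 circRNA_30966, of a U5 snRNP protein of the spliceosome (4.33, 8.51 and 8.17, adjusted p = 0.0278). Their bounds were at least 1.87-fold, 1.98-fold and 1.77-fold higher. All 7 calls were lost without at least 1 library: TLK1 without 35d replicate 3 (0.115), KDM7A without 1d replicate 2 (0.0644) or 35d replicate 3, ZNF644 without any of 1d or 35d replicate 3 (up to 0.352), PHC3 without each but 35d replicate 3 (up to 0.164), ZBTB11 and SNRNP40 without each but 35d replicate 1 (up to 0.105 and 0.095), and RNGTT without any library (up to 0.122).

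The remaining rises came from non-coding genes, a stretch with no gene and 4 genes of other functions. circRNA_10904, in an intron of the long non-coding gene LOC106505748, was listed at 0 at 1d and had 14.1, 11.4 and 14.1 at 35d (at least 3.34-fold higher, adjusted p = 0.00529). circRNA_17415 of exons 3 to 6 of the non-coding gene LOC106506475 rose by 1.78 on the log2 scale (adjusted p = 0.00529), and circRNA_19735 at LOC106506781 had 3 reads at 1d and 52 at 35d (ratio 8.36, exact 95% interval 2.71 to 41.8, adjusted p = 0.016). circRNA_16996 overlapped no annotated gene (chr15:131385450-131395443) and rose from 0, 14.8 and 15.1 to 44.4, 54.6 and 70.6 (2.42, SE 0.53, adjusted p = 0.0109). TMEM154, a membrane protein, gave circRNA_35471, with 3.98, 13.2 and 12.1 at 1d against 35.7, 39.0 and 43.1 at 35d (1.96, SE 0.43, adjusted p = 0.00535). ANTXR2, an anthrax toxin receptor that binds collagen, gave circRNA_36346 (1.10, 0.0062). GSAP, which activates gamma-secretase, and RANBP9, a scaffold of a ubiquitin ligase complex, each had 2 reads at 1d and 43 at 35d (ratio 10.4, exact 95% interval 2.70 to 88.3, adjusted p = 0.0378 and 0.041). At 35d GSAP was even (9.75, 12.8 and 11.9), while RANBP9 was not (4.33, 7.09 and 21.5). The calls of circRNA_10904 (up to 0.0372) and circRNA_16996 (up to 0.0394) held without single libraries. LOC106506475 was lost without 1d replicate 3 (0.0515), TMEM154 without 1d replicate 1 (0.0596), ANTXR2 without 1d replicates 1 and 2 (up to 0.0605), LOC106506781 without these or 35d replicate 2 (up to 0.119), GSAP without these or 35d replicates 2 and 3 (up to 0.164), and RANBP9 without 1d replicates 1 and 3 or 35d replicate 3 (up to 0.374).

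The 8 circRNAs that fell came from 8 host genes, among them regulators of chromatin, protein folding and polyadenylation. SLC45A4, a solute carrier gene, gave circRNA_25535, a circle of exon 2 alone, with 27.9, 32.9 and 15.1 at 1d against 5.41, 7.09 and 3.72 at 35d. TMX1, a thioredoxin-like protein of the endoplasmic reticulum, gave circRNA_02977, with 33.8, 34.6 and 13.6 at 1d against 8.66, 7.09 and 3.72 at 35d. Replicate 3 of 1d was the lowest of its group for both, and still above every library of 35d. Their log2 fold changes were -2.19 (SE 0.54, adjusted p = 0.0124) and -2.07 (0.57, 0.0345). PSD3, an exchange factor of Arf6, gave circRNA_18418, which went from 17.9, 21.4 and 34.7 to 7.58, 4.97 and 8.17 (-1.85, 0.48, 0.0171). NCOA7, a nuclear receptor coactivator, gave circRNA_00572, which went from 35.8, 21.4 and 19.6 to 5.41, 7.80 and 8.17 (-1.78, 0.46, 0.0198).

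EZH2, the methyltransferase of Polycomb repressive complex 2 and a gene of dividing precursors, gave circRNA_38090, with 27.9, 28.0 and 27.1 at 1d against 6.5, 9.22 and 11.15 at 35d. Its 3 libraries of 1d were nearly equal (27.7 ± 0.469, SD, n = 3), and the log2 fold change was -1.59 (SE 0.41, adjusted p = 0.0189). WDR33, which reads the polyadenylation signal, gave circRNA_15747, with 41.8, 56.0 and 63.3 at 1d against 22.7, 21.3 and 23.03 at 35d (-1.27, 0.31, 0.0129). CCT3, a subunit of the TRiC chaperonin, gave circRNA_26745 (56.6 ± 9.97 to 25.8 ± 3.93, log2 fold change -1.13, adjusted p = 0.016). ZZZ3, a zinc finger subunit of the ATAC histone acetyltransferase complex, gave circRNA_31822 (64.1 ± 4.75 to 31.5 ± 9.31, -1.05, adjusted p = 0.0278). These falls are among circRNAs, whose total rose. Per clean read the mean at 35d was 0.478 times that at 1d for SLC45A4, 0.516 for TMX1, 0.584 for PSD3, 0.639 for NCOA7, 0.726 for EZH2, 0.889 for WDR33 and 0.988 for CCT3, and for ZZZ3 the direction turned (1.03), and none of the 8 was then called. No fall kept its call without each library in turn. PSD3 was lost without 1d replicate 3 or 35d replicate 2 (up to 0.139), WDR33 without these or 1d replicate 2 (up to 0.0892), SLC45A4 without 1d replicates 1 and 2 or 35d replicate 3 (up to 0.104), and CCT3 without 1d replicates 1 and 2 or 35d replicates 2 and 3 (up to 0.0946). The others stayed called without 1 library alone, 1d replicate 3 for NCOA7 (otherwise up to 0.162) and TMX1 (0.169), 35d replicate 1 for ZZZ3 (0.158) and 35d replicate 3 for EZH2 (0.0752).

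The circles that rose and fell differed in their annotated build. Among those with a chain of annotated exons, the 50 that rose had a median length of 335.5 nt (218 to 671) and the 8 that fell of 688 nt (331 to 1896), beside 431 nt for all. The ZZZ3 circle, at 1896 nt, was the longest DE circRNA with such a chain. Lengths are sums of the annotated exons between the ends, and reads across the junction do not show which of these a circle holds. Circles that start at exon 2 were 16 of 50 (32%) among the rises and 4 of 8 (50%) among the falls, beside 28.3% of all. The median intron upstream was 9029.5 nt for rises, 25065 nt for falls and 7809 nt for all. With 8 falls these medians are a description.

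**Figure D3:**
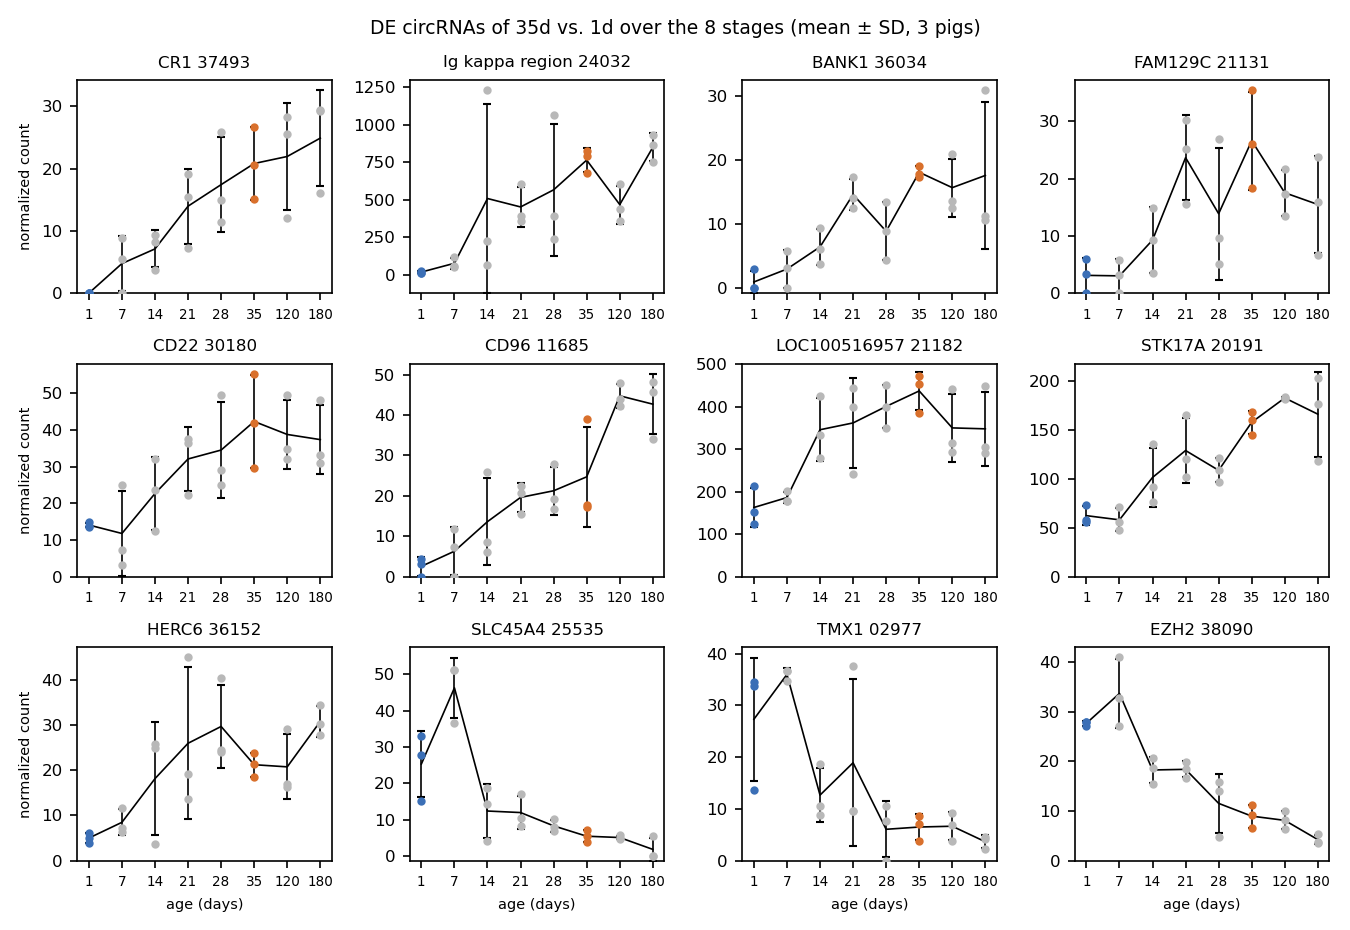
Normalized counts by age in days for 12 of the DE circRNAs, with a point for each of the 3 libraries of a stage (1d blue, 35d orange, others grey) and black lines for the mean ± SD. The 9 rises are low at 1d and 7d, and SLC45A4, TMX1 and EZH2 are high at 1d and 7d and low from 28d on; levels are relative to all circRNAs.

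The same circRNAs can be set beside another pair of ages. Between 28d and 7d, whose libraries are not those of 1d and 35d but share the scaling and the dispersion estimates of the same fit, 54 of the 57 circRNAs that rose were higher at 28d (94.7%, beside 58% of all 3000), and 0 of the 8 that fell were. Their median log2 fold changes there were 1.07 for the rises and -1.20 for the falls, beside 0.17 for all. Depth rose with age in this pair too, from 19174 to 25283 back-splice reads per library at 7d to 29749 to 43851 at 28d. The 2 pairs of ages are therefore alike in depth as well as in age, and the part of depth was not tested. The 3 rises that were not higher at 28d than at 7d were ARIH1 circRNA_33492 (-0.47), OSBPL1A circRNA_31595 (-0.85) and SNRNP40 circRNA_30966 (-0.44). Means over the later stages can be set beside those of 35d. CD96 circRNA_11685 had 24.7 at 35d and 44.7 at 120d, EPSTI1 circRNA_06645 had 8.29 at 35d and 24.5 at 180d, and HERC6 circRNA_36156 had 11.5 at 35d and 5.31 at 120d. SLC45A4 circRNA_25535 had 46.3 at 7d, above its 25.3 at 1d, before 5.41 at 35d and 1.78 at 180d, and EZH2 circRNA_38090 had 33.7 at 7d, 8.95 at 35d and 4.23 at 180d.

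Summed over the circRNAs of each host gene, 32 of 1674 genes were higher at 35d (1.91%) and 13 were lower (0.777%). These sums hold the circRNAs above and are not independent of them. A gene called as a sum without a DE circRNA of its own was SLC35D2, a nucleotide sugar transporter of the Golgi, which rose from 12.4, 5 and 4.66 to 39.0, 38.3 and 38.8 over 3 circRNAs (log2 fold change 2.44, SE 0.45, adjusted p = 0.000614). RALGPS2, an exchange factor of Ral GTPases, rose by 1.98 (adjusted p = 0.0174) and VPS13A, a lipid transfer protein, by 1.02 (0.0426). Lower sums without a DE circRNA were those of AP2A1, a subunit of the clathrin adaptor AP-2 (-1.0, 0.0065), NSD2, a histone H3 methyltransferase (-1.07, 0.0104), ALMS1 of the centrosome (-1.16, 0.0242), ATE1, an arginyl transferase (-1.0, 0.0289), AFDN, an adaptor of cell junctions (-1.09, 0.0373), PLOD2, which hydroxylates collagen (-2.86, 0.0438), and CDR2 (-2.76, 0.0483).

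In the list of B and plasma cell genes, 4 of the 7 measured were higher (57.1%, beside 1.91% of all host genes). These were BANK1, FAM129C, RALGPS2 and CD22. None was lower, and all 7 had a log2 fold change above 0. The members of the lists were chosen with earlier results of these data known, so these counts are a description. The median was 1.5, beside 0.13 over all host genes, and it ran from 1.37 to 2.64 over the 17 other settings. All 7 are named here. Those that did not pass were ST6GAL1, a sialyltransferase (1.37, adjusted p = 0.081), and the transcription factors AFF3 (0.73, 0.372) and BCL11A (0.00, 0.999). The summed level of the list was 51.7 to 70.0 normalized counts at 1d, against 166 to 211 at 35d. Of 4 T and NK cell genes CD96 was higher, and FYB, an adaptor of T cell signalling (0.76, adjusted p = 0.378), LEF1 (0.08, 0.981) and TOX (-0.03, 0.986), both factors of T cell development, did not pass. Of 4 macrophage and granulocyte genes LOC100516957 was higher, while the lysosomal protease CTSS did not pass (1.15, 0.11). Only these 2 of the 4 had a log2 fold change above 0, and the list median was 0.53. No gene of the platelet list was in the table.

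Erythroid genes went the other way without a call. All 4 had a log2 fold change below 0, with a median of -1.05, and their summed level was 115 to 162 normalized counts at 1d and 66.6 to 92.1 at 35d. TFRC, the transferrin receptor through which red cell precursors take up iron, went from 49.4 ± 15.2 to 10.97 ± 7.99 over 3 circRNAs (SD, n = 3; log2 fold change -2.24, SE 0.62, adjusted p = 0.0503). ABCB10, a mitochondrial transporter of heme synthesis, had -1.69 (0.402), EPB41, a protein of the red cell skeleton, -0.41 (0.387), and UROS, an enzyme of heme synthesis, -0.40 (0.927). Of 43 genes of the cell cycle and DNA replication none passed, and their median was -0.26. A log2 fold change above 0 was found for 15 of the 43, beside 970 of all 1674 host genes. MCM6, a subunit of the replicative helicase, was nearest to a call (-1.18, adjusted p = 0.0502). Per clean read both medians were above 0, at 0.05 for erythroid and 0.86 for cell cycle genes, beside 1.30 for all host genes. The 3 stromal and endothelial genes (FLT1, NOTCH3 and VCL) did not pass either, at a median of -0.54, which turned to 0.67 per clean read and 0.08 without 1d replicate 1. The part of cell numbers in these levels was not tested.

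Among 14 genes of innate sensing, interferon and NF-kB signalling EIF2AK2 was higher, from 6.22, 0 and 0 to 18.4, 25.1 and 21.2 over 2 circRNAs (3.54, SE 0.72, adjusted p = 0.00122), and none was lower. The median was 0.63. PARP14, an interferon-induced ADP-ribosyltransferase, was at 0 in the 3 libraries of 1d and had 5.88 ± 3.39 at 35d (adjusted p = 0.0503), and CHUK, a kinase of NF-kB activation, had the lowest value (-2.86, adjusted p = 0.216). In the list of cell adhesion and matrix genes 3 of 14 were higher (21.4%, beside 1.91% of all host genes) and none was lower. The 3 were LOC100516957 (1.27), PLXNC1 (1.32) and ITGA4 (1.71). PLXNC1 and ITGA4 are receptors on leukocytes, and LOC100516957 is annotated as similar to one. The list median was 0.45, and 8 of the 14 were above 0, beside 970 of all 1674 host genes. LOC100516957 was entered in this list and the macrophage list with earlier results of these data known, so its count there is a description.

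Lists of general cell functions had medians closer to that of all host genes than the B cell and erythroid lists had. Among 77 ubiquitin ligases and deubiquitinases MYCBP2, USP3 and HERC6 were higher and none was lower (median 0.18). Among 69 genes of endocytosis SNX6, SNX13 and VPS13A were higher and AP2A1 lower (0.06), among 68 regulators of small GTPases DENND1B and RALGPS2 were higher and PSD3 lower (0.44), and among 89 kinases and phosphatases STK17A and PPP3CC were higher (0.12). Chromatin regulators had KDM7A higher and NSD2 and NCOA7 lower of 81 (0.22), zinc finger factors ZBTB11 higher and ZZZ3 lower of 40 (-0.14), actin genes EVL higher and AFDN lower of 26 (0.31), and the list of transporters, channels and TMEM genes TMEM154 higher and SLC45A4 lower of 59 (0.01). Lists were drawn up by symbol, so that the kinases TESK2 and EIF2AK2 and the transporter SLC35D2, whose sums were also higher, are not in the kinase or transporter list. RNA processing had WDR33 lower of 69 (0.07), and the centrosome list ALMS1 lower of 36 (-0.03). None passed of 16 nuclear transport genes (-0.10), nor of 29 hosts of widely conserved circRNAs (0.12). EZH2, the 1 germinal centre gene measured, had -0.72 as a sum (adjusted p = 0.128). In this paragraph the medians of the ubiquitin, GTPase and chromatin lists kept their sign under every setting tried, and each other median, and EZH2, took the opposite sign under at least 1 (EZH2 and nuclear transport per clean read).

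**Figure D4:**
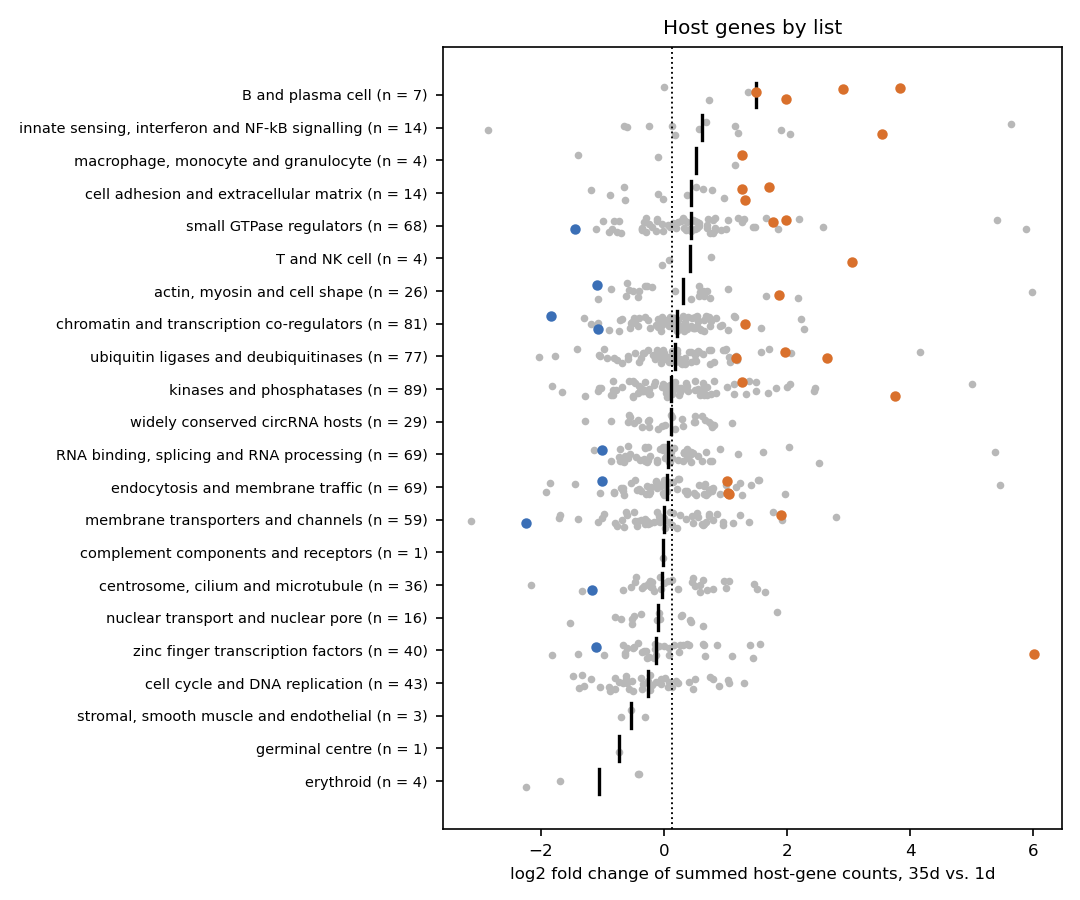
Log2 fold change between 35d and 1d of the summed circRNA counts of each host gene (points), by gene list with the number measured, with calls higher at 35d in orange and lower in blue, the median of each list as a black bar and that of all host genes (0.13) as a dotted line. B and plasma cell genes have the highest median at 1.5 and erythroid genes the lowest at -1.05, which is 0.05 per clean read.

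Host genes with several circRNAs show how far a change was shared. Besides its DE circRNA, 33 of the 47 hosts of rises gave 79 further circRNAs, of which 67 had a log2 fold change above 0 (median 0.77, beside 0.19 for all). The 8 hosts of falls gave 12 further circRNAs, 8 of them below 0 (median -0.30). CCT3 gave 7 circRNAs in all, and a second one was lower: circRNA_26742, of exons 5 to 8, went from 108 ± 22.3 to 54.5 ± 3.13 and passed the test just under the fold threshold (log2 fold change -0.98, adjusted p = 0.00708). Of the 4 further EZH2 circRNAs none passed. Of these, circRNA_38086, of exons 2 to 3, had 12.9 ± 10.3 at 1d and 12.9 ± 3.53 at 35d (log2 fold change -0.02, SE 0.53, adjusted p = 0.988), and the others had 0.75 (circRNA_38087), 0.04 (circRNA_38099) and -1.52 (circRNA_38097). The shares of the EZH2 circRNAs did not pass the test (adjusted p = 0.692), so that a difference between its circles was not shown. For these pairs the bases after the junction are the same, and those before it tell them apart.
EZH2 circRNA_38090, exons 2 to 8: actgcttcctacatcAATAATCATGGGCCA
EZH2 circRNA_38086, exons 2 to 3: cgcgggaccagggagAATAATCATGGGCCA
SNRNP40 circRNA_30966, exons 3 to 4: gatggtacagttaagTGTTGTGGAATGTCT
SNRNP40 circRNA_30965, exons 3 to 5: gacaatgatatcaagTGTTGTGGAATGTCT

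Of 614 hosts with at least 2 circRNAs none changed the shares of its circRNAs at an adjusted p under 0.05 (0%; edgeR's test of differential usage), 45 had an unadjusted p under 0.05, and no other tool was run for shares. The smallest adjusted p, 0.0763, was that of SNRNP40, TASP1, PPIP5K2 and WAPL. In each a circle listed at 0 at 1d stood beside one that held all reads of the gene at that age. The SNRNP40 circle of exons 3 to 4 held 40%, 50.0% and 39.3% of the gene's normalized count at 35d, while that of exons 3 to 5 went from 7.96, 14.8 and 16.6 to 6.5, 8.51 and 12.6. For PPIP5K2 the circle of exons 3 to 5 held 40%, 52.2% and 50.0% at 35d, beside circRNA_22025 of exons 5 to 7. TASP1, the protease that activates MLL, gave circRNA_18523 of exons 9 to 10, with 69.2%, 57.1% and 65.0%, and WAPL, which releases cohesin, gave circRNA_14075 of exons 16 to 17, with 12.8%, 8.22% and 5.08%. EIF4G3, a translation initiation factor, followed at an adjusted p of 0.174. ZNF644 showed opposite values within a gene: circRNA_27505 of exons 4 to 5 rose, while circRNA_27510 of exons 6 to 7 had -1.06 (adjusted p = 0.232), and the shares did not pass (0.174).

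**Figure D5:**
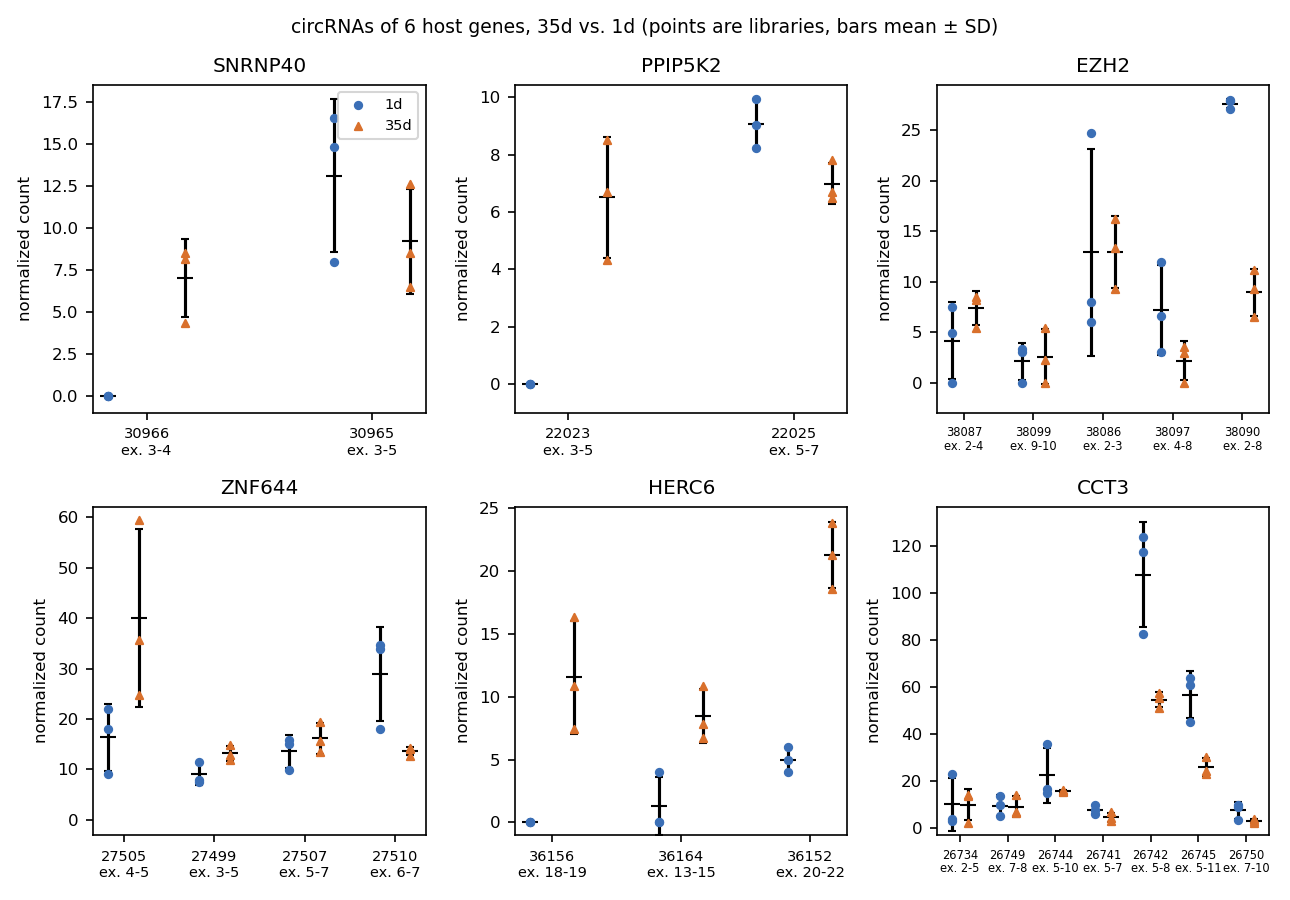
Normalized counts of all circRNAs in the table from 6 host genes, with each library of 1d (blue circles) and 35d (orange triangles) and bars for the mean ± SD of 3 pigs. In EZH2 the circle of exons 2 to 8 is lower at 35d, and that of exons 2 to 3 has a mean of 12.9 at both ages, with a wide spread at 1d. In SNRNP40 and PPIP5K2 a circle listed at 0 at 1d appears beside 1 present at both. The shares of circles did not pass edgeR's test of differential usage for EZH2 (adjusted p = 0.692) or any other host.

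The 5 most abundant circRNAs at 35d were those of the Ig kappa region and LOC100516957, both DE, and 3 that were not. SLTM circRNA_01598, of a chromatin-binding protein, had 277 ± 83.4 at 1d and 435 ± 38 at 35d and passed the test with a fold under the threshold (log2 fold change 0.65, adjusted p = 0.0302). PHF21A circRNA_20634, of a subunit of a histone demethylase complex, had 188 ± 49.2 and 284 ± 69.3 (0.59, 0.0802). LOC110255584 circRNA_05253, of a non-coding gene, had 247 ± 43.7 and 280 ± 48.0 (0.18, 0.752), and the sign of its fold change turned under other scalings.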

How the data were processed

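Spleen total RNA of 24 pigs was sequenced by the authors after removal of ribosomal RNA. The paper also describes removal of linear RNA with RNase R, which the labels do not mention; if it was done, counts per clean read depend on how complete it was in each library. Per the paper, reads were mapped to Sscrofa11.1 with TopHat2 and BWA and circRNAs were called with CIRI2; the submitters' processing notes also list FastQC and cutadapt. The deposited table holds raw counts of back-splice reads. The rule that chose its 3000 circRNAs is not given in the sources used here. Whole-number counts were scaled by TMM (the trimmed mean of M values) and compared by the quasi-likelihood test of edgeR (version 4.0.16, R 4.3.3, two-sided) in 1 fit over all 24 libraries with a coefficient per stage, and p-values were Benjamini-Hochberg adjusted over every circRNA, or every host gene, in the fit. Standard errors were derived from the fold change and F statistic. Circle ends were matched to RefSeq exons of the same assembly; the splice signal GT-AG was found at all 3000. Host gene lists were drawn up from symbols and symbol patterns and leave out some genes of each function. The members and lists were chosen with earlier results of these data known. Values per library were given for the 15 largest rises and 10 largest falls with a mean of at least 10 and no overlap, for DE circRNAs listed at 0 at 1d, for hosts with at least 2 DE circRNAs, for the 5 hosts of smallest p for shares and for the 5 most abundant circRNAs at 35d; those of other DE circRNAs were added after they were seen. Up to 4 genes of smallest p were named per list, and more for the B cell list. The function groups of the DE circRNAs were formed after the calls were known. The tests were checked on simulated counts. At a log2 fold change of 1 or -1, 7.5% of rises and 10% of falls were called. At 2 or -2 these were 65% and 37.5%. Of 2800 unchanged circRNAs 8 were called. The test of shares called 24.5% of the hosts with a changed circRNA, so many changes could be missed. Clean reads per library, valid bases and GC content came from the paper's supplement and served as alternative depth or covariates. Replicates were separate pigs, and the numbers 1 to 3 did not pair them. DESeq2 (version 1.42.0) served as an alternative.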

Additional observations from a re-analysis of the deposited data

How the results depend on the processing

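The 57 rises and 8 falls, and the host gene calls of 32 and 13, depended on depth and scaling, and the cause of each move was not tested unless stated. With clean reads as the depth, which adds the rise of the circRNA total, 920 circRNAs were higher and 0 lower (edgeR, 1341 at an unadjusted p under 0.05, median log2 fold change 1.29), with 713 and 0 host genes. The 57 rises were among them. With the table's totals 33 were higher and 21 lower (21 host genes lower, median -0.01), and with a filter on low counts 37 and 13 (21 host genes lower). With DESeq2's Wald test 26 circRNAs and 26 host genes were lower. With valid bases as a covariate 15 and 2 circRNAs and 1 lower host gene were called, with GC content 8 and 2 circRNAs and 14 and 3 host genes, and after thinning to 16273 reads 21 rises. Among libraries with at least 0.96 valid bases, where 1 library of 35d stays and is assumed to vary like the other groups, 3 and 0 circRNAs (236 at an unadjusted p under 0.05) and 6 and 1 host genes were called. Without single libraries, rises ran from 26 to 63, falls from 2 to 8, higher host genes from 23 to 45 and lower ones from 3 to 13. Counts of rises and falls moved most without 1d replicates 1 (26 and 5) and 2 (28 and 2) and 35d replicates 2 (32 and 4) and 3 (36 and 8), and lower host genes without the last 3 (6, 3 and 6). The circRNAs of CR1 and LOC100516957 were called in all 17 settings. Of rises, 12 kept their call without each single library. Among these, the circRNAs of CR1, LOC100516957, STK17A and TESK2 and circRNA_10904 also kept it with GC content as a covariate. Those of BANK1, the Ig kappa region, CD96, USP3 and B4GALT6, the longer PRPSAP2 circle and circRNA_16996 lost it. ZZZ3 circRNA_31822 turned to 0.038 per clean read, and LOC110255584 circRNA_05253 to -0.027 with the table's totals, -0.0301 with 0.96 valid bases and -0.019 after thinning. Same-numbered libraries of the 2 ages did not deviate together (correlations -0.018, -0.008 and -0.006), and with the replicate block 52 rose and 8 fell. No setting called a change of shares.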

Other observations

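Of the circRNAs with a mean of at least 10, 22 had a log2 fold change of at least 1.5 in either direction and were not called by edgeR, 14 of them lower and 8 higher at 35d. The 4 with the largest fold in each direction are given, chosen after their values were seen. SLC22A23 circRNA_32436 had 37.8, 46.1 and 0 normalized counts at 1d against 8.66, 2.13 and 0 at 35d (log2 fold change -3.09, SE 1.31, adjusted p = 0.292), and the ages overlapped. circRNA_25141, within BABAM2, had 29.9, 36.2 and 16.6 against 0, 9.93 and 0 (-2.86, 1.11, 0.238). TFRC circRNA_11324 had 37.8, 26.3 and 19.6 against 16.2, 3.55 and 0 (-2.23, 0.87, 0.24). circRNA_30386 spans several annotated genes on chromosome 6, most of them described as cationic amino acid transporter 3 or similar to it. It had 209, 268 and 225 normalized counts at 1d against 140, 38.3 and 0 at 35d (-2.04, 1.71, 0.681), so that the libraries of 35d differed widely.

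Among those higher at 35d, NDFIP2 circRNA_06930 had 7.96, 3.29 and 0 at 1d against 0, 21.3 and 33.4 at 35d (log2 fold change 2.44, SE 1.46, adjusted p = 0.512), with overlapping ages. RALGPS2 circRNA_38284 had 5.97, 3.29 and 4.52 against 16.2, 27.0 and 7.43 (1.88, 0.67, 0.124). ZNF280D circRNA_01645 had 0, 8.23 and 10.5 against 20.6, 13.5 and 28.2 (1.62, 0.51, 0.0735). DENND1B circRNA_04863 had 5.97, 3.29 and 9.04 against 19.5, 24.8 and 13.4 (1.62, 0.50, 0.0614).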
